A study of Mus musculus with 12 samples.

Results

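The genes described here are 32 protein-coding genes of the neuronal cytoskeleton, axon and synapse, taken by symbol from the 41079 genes of the deposited table. Every symbol was found, and all 32 had enough counts to be among the 20771 genes tested. RNA was measured in whole mouse embryos collected between 10.0 and 11.0 days after fertilization from timed matings of mice heterozygous for Mfsd12, the gene of a lysosomal and melanosomal membrane protein. Per the labels' genotypes, 4 embryos were Mfsd12 knockout, 4 were heterozygous (Het) and 4 were wild-type, and each embryo is 1 library made from 325 ng of RNA. The labels name no treatment, strain or allele, and the stage of each single embryo is not given in the sources used here, although the submitters refined staging computationally. The whole body was sampled, so fewer neurons and less RNA of these genes per neuron cannot be told apart.

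At this age the neural tube and the ganglia are producing their first neurons. A cell that leaves the cycle switches on neuronal tubulin, microtubule-associated proteins and neurofilaments, which stiffen the growing axon. Kinesins then carry vesicles along the axon, the growth cone steers it, and the proteins of vesicle release are made ahead of working synapses.

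Each embryo had between 53133084 and 67977990 counted reads in all. Mfsd12 stood at 2.31 to 3.57 CPM (read counts scaled to equal library totals) in knockout embryos, at 2.58 to 8.84 CPM in heterozygous embryos and at 9.38 to 16.2 CPM in wild-type embryos. The library labelled heterozygous 2, at 2.58 CPM, lay inside the knockout range. Each title also holds a number, 4, 4.1b, 14, 15 or 18, whose meaning is not stated. A further number follows it, also of unstated meaning and not used here. Of the leading numbers, called title numbers below, 4 and 18 occur with all 3 genotypes, and 4.1b, 14 and 15 with no wild-type embryo. Transcripts of the Y-linked gene Ddx3y were at 0 to 0.0339 CPM in the 4 heterozygous embryos and at 44.8 to 75.1 CPM in 3 knockout and 3 wild-type embryos, so sex and genotype overlap only in part.

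Taken as a group, the neuronal genes lay lower in knockout embryos than in both other genotypes, with large differences between single embryos. Against wild-type embryos the estimate was lower for 30 of the 32 genes, and the median log2 fold change was -0.95, while over all 20771 genes tested the median was 0.01 and 48.7% of estimates were lower. Against heterozygous embryos 31 genes had a lower estimate and the median was -1.04, beside -0.001 over all genes. No member passed the adjusted threshold of 0.05 in edgeR's quasi-likelihood test with Benjamini-Hochberg adjustment in any of 4 comparisons. The smallest adjusted p of a member was 0.537 against wild-type, 0.601 against heterozygous and 0.181 against the mean of both. Of all genes tested, edgeR called 0% against wild-type, 0% against heterozygous, 0% between heterozygous and wild-type, and 0.00481% (1 gene) against the mean of both.

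The members were chosen with earlier results of these data known. Shares and medians over all genes therefore only set a scale for the members' values and test nothing about the list. At an unadjusted edgeR p under 0.05, 20 of the 32 members were lower than in wild-type embryos, where 4.08% of all genes were. The same count was 24 against heterozygous embryos, beside 3.79% of all genes, and 26 against the mean of both, beside 4.87%. These counts depended on the fit, and so did the count of all genes in either direction, given in brackets below. In the main fit against wild-type the latter was 1730 of 20771. Against wild-type, 12 members reached that level with the title number as a block (1175 of 20771 genes). In embryos of numbers 4 and 18 only, 7 did (745 of 21492). With an index of stage, made of non-neuronal genes, as covariate, 3 did (630 of 20771). Leaving out 1 embryo gave 10 without wild-type 2 (1028 genes) and 11 without knockout 2 (1601 genes) or without knockout 4 (839 genes). It gave 13 without knockout 1 (1447 genes) and up to 28 without knockout 3 (2872 genes). Against heterozygous embryos, where the main fit had 1537 genes, the count was 11 with Xist as covariate (721 genes) and 16 with the stage index (801 genes). It was 13 without heterozygous 1 (1334 genes) and 15 without knockout 2 (1506 genes). For 5 members every knockout embryo lay below every wild-type embryo (1.82% of all genes), and for 6 every knockout embryo lay below every heterozygous embryo (1.93%). Crmp1, Nefm, Kif1a and Scg3 were the 4 members below all 8 other embryos in each knockout embryo, a pattern held by 0.395% of all genes. With DESeq2, 1 member passed its adjusted threshold against wild-type (Kif1a, beside 0.154% of all genes called lower) and 3 against heterozygous (Kif1a, Crmp1 and Reep1, beside 0.144%). Against the mean of both, DESeq2 called Kif1a, Snap25, Crmp1, Tubb3, Scg3, Nefm and Dpysl3 lower, beside 0.554% of all genes.

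**Figure D1:**
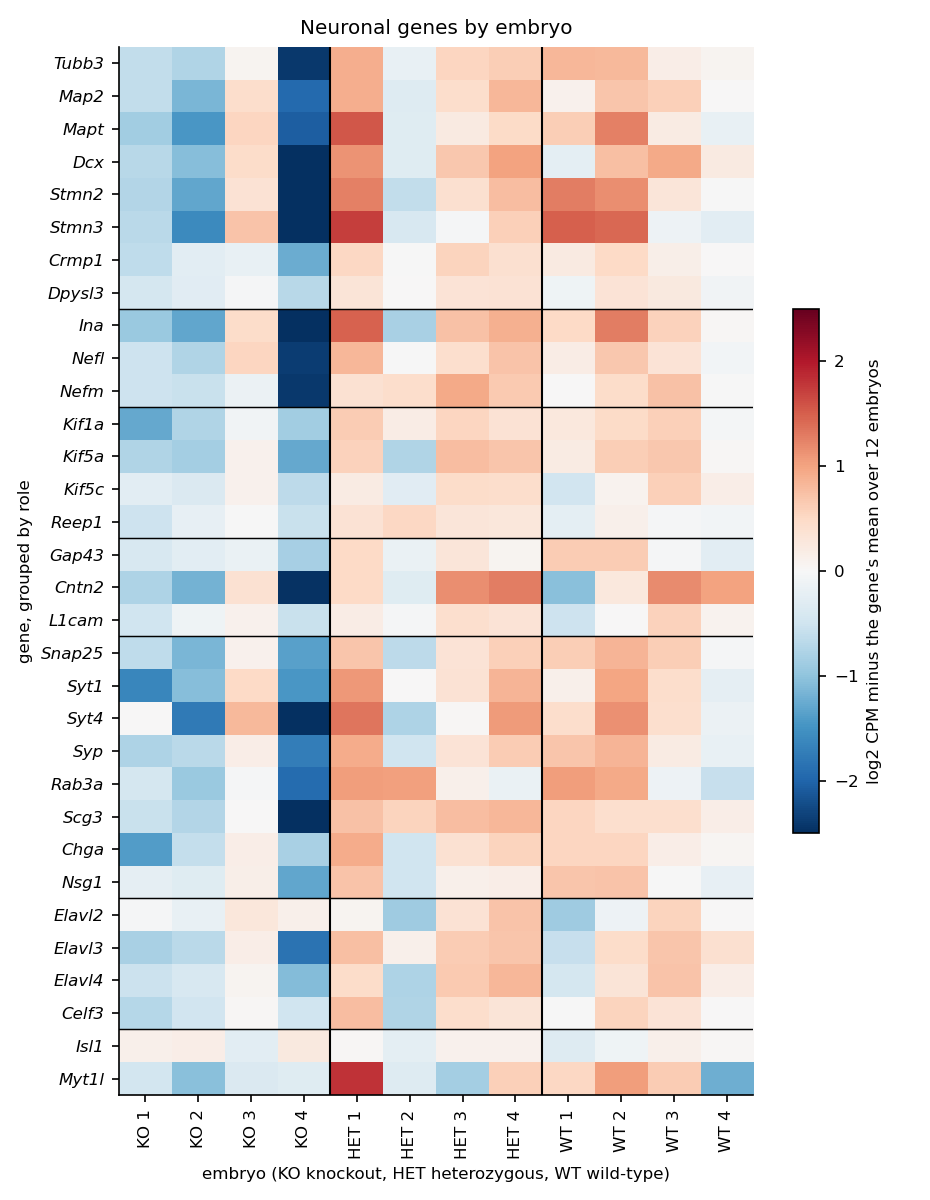
Level of each of the 32 neuronal genes (rows, grouped by role) in each of the 12 embryos (columns, by genotype), as log2 CPM minus the gene's mean over all embryos. Knockout embryos 1, 2 and 4 are blue for most rows, knockout embryo 3 is near or above the mean, and Isl1 and Elavl2 are the rows without lower knockout levels.

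Stretches of promoter were compared because members moved together across embryos. RefSeq promoter windows of GRCm38.p6, each 300 bases long with 250 before and 50 after a start site, were found for 22 of the 32 members. The counts refer to GRCm39, and no coordinate of one build is used with the other. The windows below belong to Crmp1, Kif1a and Scg3, whose knockout embryos lay below all others, and to Isl1, which did not lie lower. Capitals mark the E-box CAGCTG, the kind of site bound by basic helix-loop-helix factors, and the pieces CAGCACC and GGACAG of RE1, the element bound by the repressor REST, on either strand.
Kif1a, minus strand of chr1:93101825-93102124: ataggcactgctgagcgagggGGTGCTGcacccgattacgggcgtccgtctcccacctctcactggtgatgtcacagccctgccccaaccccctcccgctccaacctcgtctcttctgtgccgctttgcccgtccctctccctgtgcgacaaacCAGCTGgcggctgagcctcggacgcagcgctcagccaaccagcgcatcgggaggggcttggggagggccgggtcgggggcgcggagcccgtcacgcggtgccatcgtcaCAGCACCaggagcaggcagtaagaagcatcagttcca
Crmp1, plus strand of chr5:37241808-37242107: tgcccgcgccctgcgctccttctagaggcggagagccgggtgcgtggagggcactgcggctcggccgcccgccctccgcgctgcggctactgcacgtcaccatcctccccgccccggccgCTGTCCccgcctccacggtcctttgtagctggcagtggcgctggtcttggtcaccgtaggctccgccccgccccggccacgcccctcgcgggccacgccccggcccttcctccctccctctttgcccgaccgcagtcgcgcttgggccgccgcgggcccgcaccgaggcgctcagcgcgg
Scg3, minus strand of chr9:75684007-75684306: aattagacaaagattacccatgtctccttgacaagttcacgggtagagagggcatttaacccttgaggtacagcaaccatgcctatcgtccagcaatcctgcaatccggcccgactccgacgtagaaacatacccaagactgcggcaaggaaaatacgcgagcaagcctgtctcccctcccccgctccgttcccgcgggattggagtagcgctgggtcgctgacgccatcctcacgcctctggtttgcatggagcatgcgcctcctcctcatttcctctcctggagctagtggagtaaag
Isl1, minus strand of chr13:116309639-116309938: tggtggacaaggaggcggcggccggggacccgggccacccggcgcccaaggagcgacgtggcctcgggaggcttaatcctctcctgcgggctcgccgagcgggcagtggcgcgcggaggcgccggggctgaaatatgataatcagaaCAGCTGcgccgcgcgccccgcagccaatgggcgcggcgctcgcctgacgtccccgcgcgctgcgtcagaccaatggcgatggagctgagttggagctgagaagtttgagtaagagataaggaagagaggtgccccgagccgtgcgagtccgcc
The Kif1a window holds 1 CAGCTG and 2 CAGCACC pieces, the Crmp1 window 1 GGACAG piece, the Isl1 window 1 CAGCTG, and the Scg3 window none of the 3. A second start site is listed for Kif1a and one for Crmp1, and those windows are not shown.

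Searched on both strands, CAGCTG was present in at least 1 window of 11 of the 22 matched members, against 18.3% of the 27025 genes in the table. Per window it was in 37.0% of the 46 member windows and in 16.3% of all 32851. The members with it were Ina, Kif1a, Syt1, Rab3a, Chga, Elavl2, Elavl3, Elavl4, Celf3, Isl1 and Myt1l, a set that holds Isl1 and Elavl2 as well as Kif1a. The piece CAGCACC was in 3 matched members, Tubb3, Kif1a and Kif5c (8.14% of genes), GGACAG was in 9 (24.7% of genes; per window 21.7% of member windows and 22.2% of all), and both pieces with 2 bases between them were in 0 (0.0407% of genes). Of the other motifs searched, CAGATG was in 5 members (19.2% of genes), CATATG in 1 (4.48%), TATAAA in 5 (15.7%), CCAAT in 12 (41.1%), GGGCGG in 15 (38.2%), TGACGTCA in 2 (2.03%) and TAATTA in 3 (6.12%). Member windows were richer in G and C, with a median of 58.8% against 52.7% over all windows, and held a median of 13 CG pairs against 7. Several members have more than 1 window, which gives them more chances of a match.

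The genes that build and regulate microtubules were the most abundant group. On a scale that divides CPM by gene length in kilobases (FPKM), the neuronal beta tubulin Tubb3 had the highest level of the 32, a mean of 152.8 FPKM over the 12 embryos. The growth cone gene Gap43 followed at 54.4 FPKM and the tubulin-binding stathmin Stmn2 at 49.3 FPKM, and the zinc finger factor Myt1l was lowest at 0.0513 FPKM. Tubb3 occupies bases 124138292 to 124148754 of chromosome 8 in GRCm39, plus strand.

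Tubb3 was at 149.7, 135.7, 239.6 and 43.05 CPM in knockout embryos 1 to 4. It was at 430.6, 202.5, 331.2 and 350.5 CPM in heterozygous embryos 1 to 4 and at 408.7, 400.1, 257.2 and 240.3 CPM in wild-type embryos 1 to 4. All knockout embryos lay below all wild-type embryos, by a narrow margin for knockout 3, and that embryo also exceeded the library labelled heterozygous 2. The mean was 142.0 ± 80.4 CPM in knockout and 326.6 ± 90.2 in wild-type (SD, n = 4 each). The estimate was 2.3-fold lower (log2 fold change -1.20 ± 0.40 SE, edgeR adjusted p = 0.537). The exact two-sided permutation p was 0.0286, the smallest that 4 against 4 embryos can give; exact values here are not adjusted for the number of genes.

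Crmp1, a collapsin response mediator protein that links guidance signals to the axon cytoskeleton, lies on chromosome 5 from 37399402 to 37449507, plus strand. It was at 67.4, 87.3, 92.6 and 44.3 CPM in knockout embryos, at 149, 104.1, 154.1 and 137.8 CPM in heterozygous embryos and at 122.6, 147.7, 115.3 and 105.2 CPM in wild-type embryos. Its highest knockout value stayed under its lowest value elsewhere. The log2 fold change was -0.75 ± 0.22 against wild-type and -0.90 ± 0.22 against heterozygous (SE, edgeR adjusted p = 0.537 and 0.601), and the exact two-sided p against the 8 other embryos was 0.00202, the smallest possible. Crmp1 shares 315 exon bases with Evc on the opposite strand, and counting ignored strand.

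The remaining 6 genes of this group had lower estimates as well, with wider spread. Stmn2 had the lowest estimate of all 32 members against wild-type, a log2 fold change of -1.51 ± 0.56, and ranged from 9.66 to 94.3 CPM over the knockout embryos. Stmn3, its close relative, differed 25.0-fold between knockout 4 (2.96 CPM) and heterozygous 1 (73.9 CPM), the widest range of any member. The microtubule-associated proteins Map2, Mapt (tau) and Dcx (doublecortin, which steadies microtubules in migrating neurons) had log2 fold changes of -0.94, -1.20 and -1.11. For each of these 3 genes and both stathmins, knockout 3 lay inside the wild-type range. Dpysl3, another collapsin response mediator, varied least of the 8, with log2 fold changes of -0.45 ± 0.16 against wild-type and -0.61 ± 0.16 against heterozygous embryos, where the groups did not overlap.

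The neurofilament subunits polymerize into the intermediate filaments that fill axons. The middle subunit Nefm lies on chromosome 14 from 68356994 to 68362453, minus strand, close to the gene of the light subunit Nefl. Nefm was at 56.1, 54.6, 72.2 and 15.1 CPM in knockout embryos, at 103.8, 109.1, 153.2 and 126.3 CPM in heterozygous embryos and at 80.6, 109.9, 132.6 and 79.4 CPM in wild-type embryos. Each knockout embryo lay below the other 8, knockout 3 by the least. The log2 fold change was -1.02 ± 0.35 against wild-type and -1.31 ± 0.36 against heterozygous (SE, edgeR adjusted p = 0.537 and 0.601; exact two-sided p against the 8 others = 0.00202). Nefl and Ina (alpha-internexin) had log2 fold changes of -0.76 ± 0.43 and -1.39 ± 0.58 against wild-type, and knockout 3 lay inside the wild-type range for both. Nefm shares 1077 exon bases with A230070E04Rik and Ina shares 931 with Nt5c2, each on the opposite strand.

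Kif1a, the kinesin that moves synaptic vesicle precursors down the axon, had the smallest edgeR p of the 32 genes in all 3 comparisons of knockout embryos. It lies on chromosome 1 from 92943180 to 93029760, minus strand. It was at 17.7, 25.4, 40.3 and 23.5 CPM in knockout embryos, at 66.3, 48.7, 62.7 and 55.4 CPM in heterozygous embryos and at 51.6, 59.7, 64.9 and 41.4 CPM in wild-type embryos. The groups did not overlap, and knockout 3 (40.3) and wild-type 4 (41.4) were close neighbours. Means were 26.7 ± 9.62, 58.3 ± 7.84 and 54.4 ± 10.3 CPM (SD, n = 4 each). The log2 fold change was -1.03 ± 0.23 against wild-type (edgeR p = 0.000582, adjusted p = 0.537), -1.12 ± 0.23 against heterozygous (adjusted p = 0.601) and -1.07 ± 0.21 against both (adjusted p = 0.181; exact two-sided p = 0.00202). Kif1a, Syt1 and Chga were the 3 members whose lowest embryo was knockout 1.

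The kinesin-1 heavy chains carry many axonal cargoes. Kif5c, the most abundant per length of the transport genes at 12.4 FPKM, was at 68.3, 64.0, 88.8 and 52.5 CPM in knockout, at 94.7, 67.8, 112.6 and 112.1 CPM in heterozygous and at 59.1, 87.2, 125.2 and 92.5 CPM in wild-type embryos. Its groups overlapped, with wild-type 1 below 3 knockout embryos (log2 fold change -0.41 ± 0.23, edgeR adjusted p = 0.641). Kif5a had an estimate of -1.004 ± 0.339, and the library labelled heterozygous 2 stood within the knockout range at 10.8 CPM. Reep1, which shapes the endoplasmic reticulum of axons, was at 19.9, 24.7, 28.1 and 19.3 CPM in knockout, at 36.5, 40.7, 35.1 and 34.5 CPM in heterozygous and at 24.0, 31.0, 28.0 and 27.1 CPM in wild-type embryos. Its knockout embryos lay apart from heterozygous embryos (log2 fold change -0.68 ± 0.15, edgeR adjusted p = 0.601) and overlapped wild-type embryos (-0.26 ± 0.15).

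Among growth cone and adhesion genes, Gap43, which promotes axon growth from the inner face of the membrane, was at 51.6, 56.8, 60.8 and 38.4 CPM in knockout embryos. It was at 95.8, 60.6, 83.7 and 71.8 CPM in heterozygous and at 105.5, 105.7, 67.1 and 57.2 CPM in wild-type embryos. Among knockout embryos only knockout 3 exceeded the lowest embryo of either other genotype (log2 fold change -0.69 ± 0.23, edgeR adjusted p = 0.537, exact two-sided p = 0.0571). The adhesion molecule Cntn2 (TAG-1), found on early commissural and motor axons, ranged from 5.07 to 36.4 CPM in knockout, 22.9 to 67.9 CPM in heterozygous and 13.5 to 63.9 CPM in wild-type embryos. L1cam, a second axonal adhesion molecule, had overlapping groups and a log2 fold change of -0.34 ± 0.24.

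All 8 genes of synaptic vesicles and secretory granules had lower estimates in knockout embryos, with log2 fold changes from -1.19 to -0.69 against wild-type. Scg3, a granin that gathers cargo into secretory granules, was at 6.14, 5.40, 9.07 and 1.01 CPM in knockout, at 15.1, 13.4, 15.4 and 16.04 CPM in heterozygous and at 13.1, 12.1, 12.1 and 10.2 CPM in wild-type embryos. Each knockout embryo lay below all others, and heterozygous embryos lay above all wild-type embryos. The log2 fold change was -1.13 ± 0.43 against wild-type and -1.47 ± 0.43 against heterozygous (SE, edgeR adjusted p = 0.553 and 0.601; exact two-sided p against the 8 others = 0.00202).

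Snap25, the membrane fusion protein of nerve terminals, was at 3.49, 2.47, 5.86 and 2.13 CPM in knockout embryos, at 8.85, 3.44, 6.89 and 8.23 CPM in heterozygous embryos and at 8.31, 9.85, 8.37 and 5.37 CPM in wild-type embryos. Knockout 3 exceeded wild-type 4, and the library labelled heterozygous 2 lay among the knockout embryos. The log2 fold change was -1.19 ± 0.36 against wild-type and -0.97 ± 0.36 against heterozygous (SE, edgeR adjusted p = 0.537 and 0.641). Nsg1, an endosomal sorting protein of neurons, was the most abundant of the group per length at 24.9 FPKM. It was at 55.0, 52.5, 71.2 and 26.1 CPM in knockout, at 106.5, 45.7, 70.5 and 72.9 CPM in heterozygous and at 104.1, 105.6, 63.8 and 55.7 CPM in wild-type embryos, so its groups overlapped (log2 fold change -0.69 ± 0.32, edgeR adjusted p = 0.599). Nsg1 shares 1156 exon bases with Stx18 on the opposite strand.

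The vesicle proteins Syt1, Syt4, Syp (synaptophysin) and Rab3a, and the granin Chga were at low levels, between 0.729 and 4.51 FPKM. Their log2 fold changes against wild-type were -1.03 for Syt1, -0.85 for Syt4, -1.05 for Syp, -1.16 for Rab3a and -0.88 for Chga, and for each gene the genotypes overlapped. Syt4 had the largest error of the group, ± 0.63, with knockout values from 0.705 to 7.27 CPM.

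The RNA-binding proteins of neurons showed a mixed pattern. Elavl3 (HuC), which stabilizes neuronal messages, was at 12.7, 13.9, 24.9 and 6.16 CPM in knockout embryos, at 37.4, 24.1, 34.3 and 35.8 CPM in heterozygous embryos and at 14.8, 30.6, 35.6 and 29.1 CPM in wild-type embryos. Knockout 3 exceeded wild-type 1 and the library labelled heterozygous 2 (log2 fold change -0.93 ± 0.36, edgeR adjusted p = 0.561). Elavl2 (HuB), which the germ line also makes, was at 31.6, 28.2, 39.0 and 34.98 CPM in knockout, at 33.8, 17.3, 41.5 and 52.8 CPM in heterozygous and at 17.4, 29.4, 47.2 and 32.2 CPM in wild-type embryos. The knockout values lay inside both other ranges, and the log2 fold change was 0.08 ± 0.32 (edgeR adjusted p = 0.947). Elavl4 and Celf3 had estimates of -0.68 ± 0.34 and -0.63 ± 0.28; Celf3 shares 3892 exon bases with Snx27 on the opposite strand, more than any other member shares.

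Isl1, the LIM homeodomain factor of motor and sensory neurons, which the heart field, hindlimb and gut also use, was the member with the highest log2 fold change. It was at 19.7, 20.4, 15.2 and 21.4 CPM in knockout embryos, at 18.5, 15.3, 19.6 and 19.5 CPM in heterozygous embryos and at 14.4, 16.8, 19.9 and 18.6 CPM in wild-type embryos. All 12 embryos lay within 1.48-fold, and knockout 4, the lowest embryo for most members, was the highest for Isl1. The log2 fold change was 0.14 ± 0.16 (edgeR adjusted p = 0.806). In the list of 10 second heart field and limb bud genes, which includes other sites of Isl1 use, 7 had a higher estimate and the median was 0.33, while the 22 neuron subtype transcription factors had 21 lower and a median of -0.32; the part of these cells in the Isl1 level was not tested.

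Myt1l, a zinc finger factor that represses non-neuronal genes in neurons, was at 0.767, 0.514, 0.824 and 0.858 CPM in knockout, at 3.70, 0.845, 0.585 and 1.59 CPM in heterozygous and at 1.52, 2.19, 1.65 and 0.452 CPM in wild-type embryos. The knockout embryos were close together and the other groups spread widely around them, with the lowest level of all in wild-type 4 (log2 fold change -0.97 ± 0.57, edgeR adjusted p = 0.653).

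**Figure D2:**
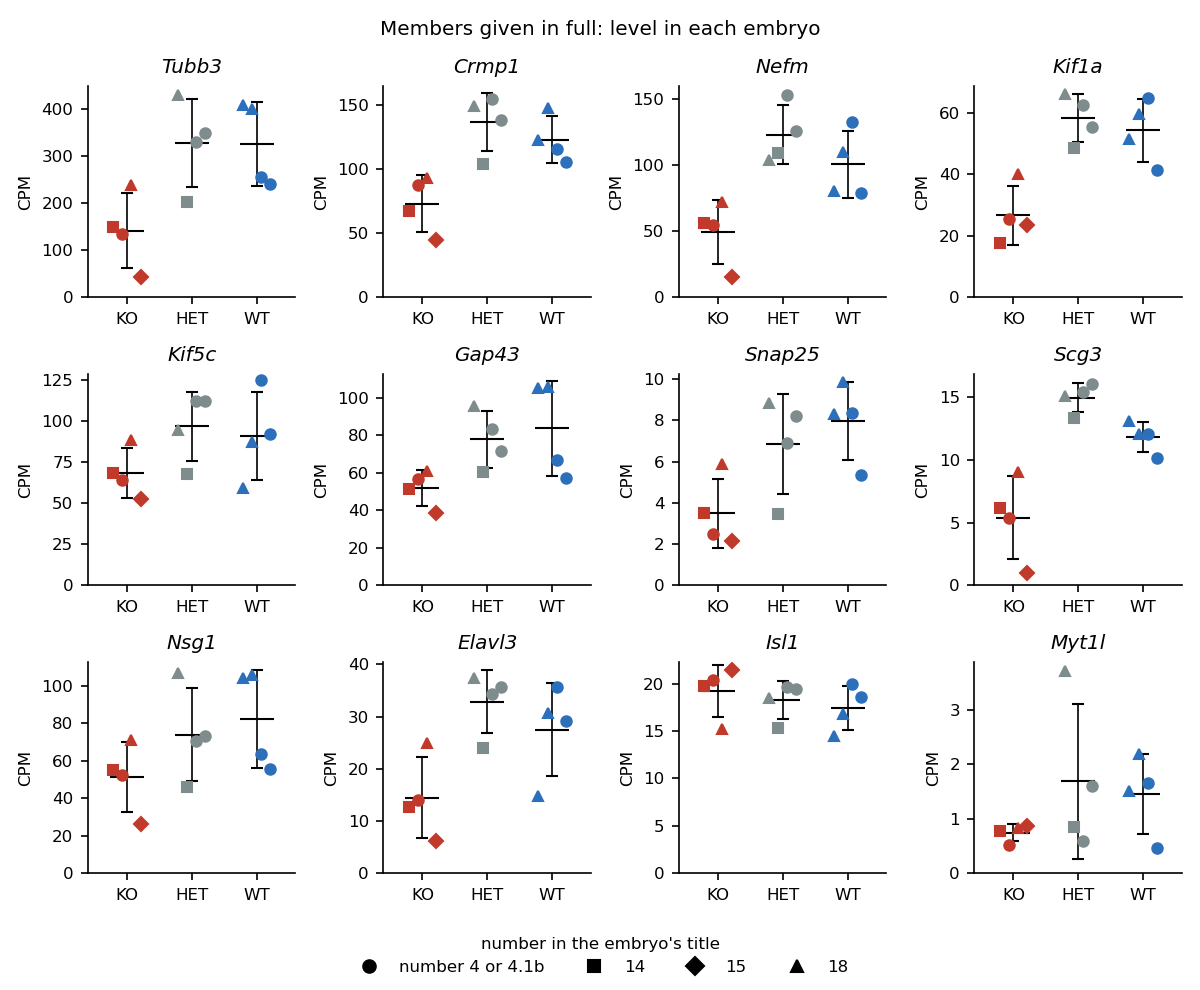
Level in CPM (vertical axes, from 0) of the 12 members given in full, by genotype, with 1 point per embryo and the bar and whiskers showing mean ± SD of 4 embryos. In Crmp1, Nefm, Kif1a and Scg3 all knockout points lie below all others, knockout 3 (triangle) is the highest knockout point in most panels, and the Isl1 groups overlap.

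Across roles the median log2 fold change against wild-type was -1.15 for the 8 microtubule and actin regulators, -1.02 for the 3 neurofilaments, -1.04 for the 8 synaptic and secretory genes, -0.71 for the 4 transport genes, -0.69 for the 3 growth cone genes and -0.66 for the 4 RNA-binding genes. These are descriptions, and differences between roles were not tested.

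**Figure D3:**
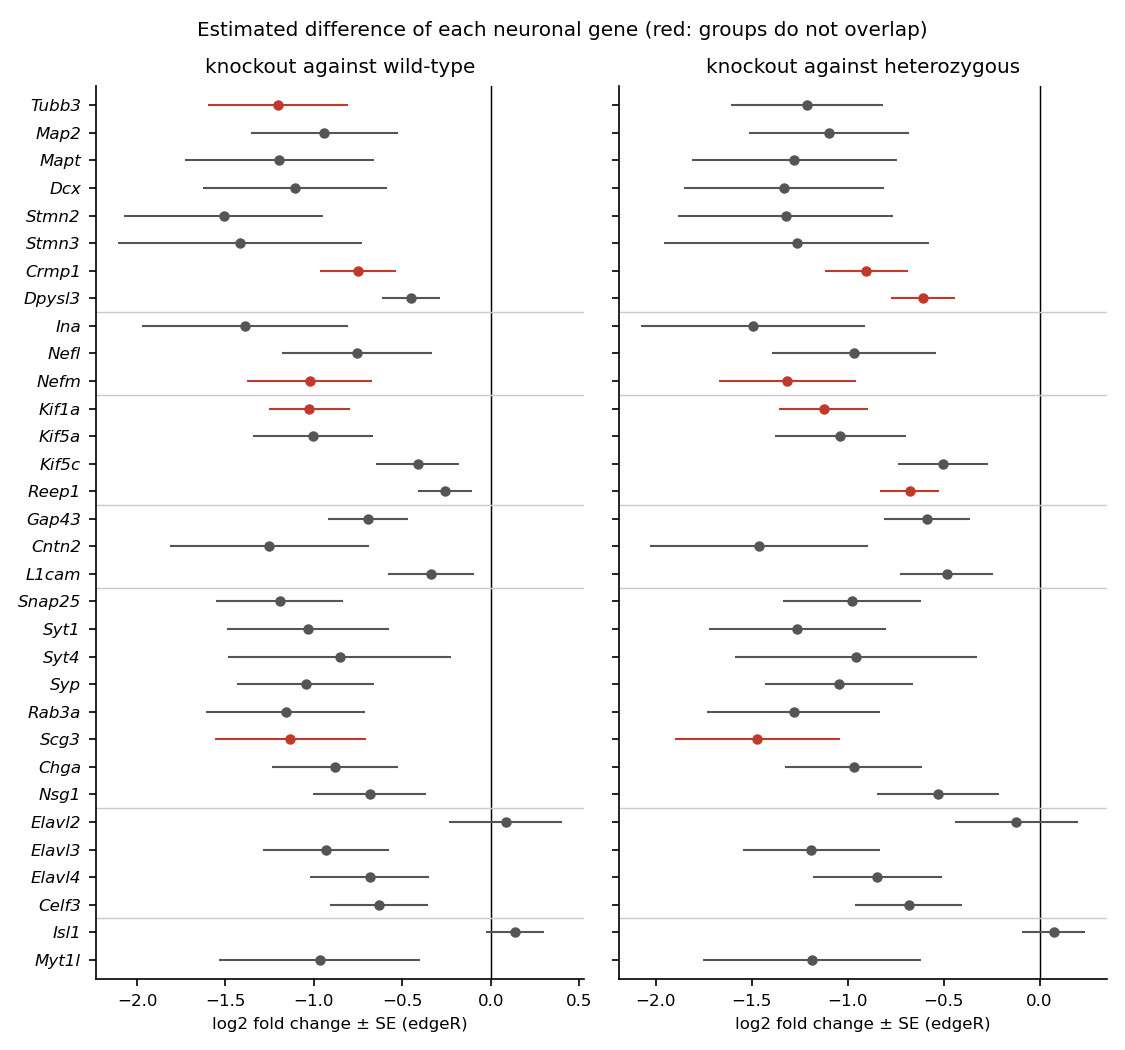
Estimated log2 fold change with its SE for each of the 32 members, knockout against wild-type at the left and against heterozygous at the right. Points are red where no knockout embryo overlaps the other group, for 5 members at the left and 6 at the right, and both comparisons share the knockout embryos.

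Heterozygous and wild-type embryos differed little. The estimate was higher in heterozygous embryos for 26 of the 32 members, with a median log2 fold change of 0.11 and a range from -0.22 to 0.42. Without heterozygous 1 the median was 0.01 and without wild-type 4 it was 0.03, with 15 members lower in each, without heterozygous 4 it was 0.04 with 12 lower, and without heterozygous 2 it was 0.29 with 2 lower. It was 0.07 without wild-type 1 and 0.18 without wild-type 2. Reep1 alone had an unadjusted edgeR p under 0.05, where 0.732% of all genes were higher at that level. Its log2 fold change was 0.42 ± 0.15 (SE, edgeR adjusted p = 1). In Reep1 and Scg3 all heterozygous embryos lay above all wild-type embryos, as in 0.433% of all genes.

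Single embryos differed more in these genes than in others. The mean over the 32 members of log2 CPM, centred on the 12 embryos, was -0.62, -0.75, 0.17 and -1.54 in knockout embryos 1 to 4, 0.79, -0.24, 0.41 and 0.58 in heterozygous embryos and 0.21, 0.63, 0.40 and -0.03 in wild-type embryos. Knockout 4 had the lowest level of the 12 embryos for 25 of 32 members, and heterozygous 1 the highest for 17. Knockout 3 was in the middle of the order, with a median rank of 7, and the library labelled heterozygous 2 had a median rank of 4. Within a genotype the median SD of log2 CPM over the members was 0.71 in knockout, 0.58 in heterozygous and 0.45 in wild-type embryos, against 0.31, 0.39 and 0.36 over all genes tested. Summed over the 32 members, the level ran from 567.2 to 1577 CPM in knockout, from 1307 to 2375 CPM in heterozygous and from 1463 to 2212 CPM in wild-type embryos.

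Within title number 4, the single knockout embryo was lower than the mean of 2 wild-type embryos for 31 members, with a median log2 difference of -0.89, and below both of them for 30. Within number 18, the single knockout embryo was lower for 21 members, with a median of -0.33, and below both wild-type embryos for 17. Against the single heterozygous embryo of the same number, 31 members were lower within number 4 (median -1.33) and 31 within number 18 (median -0.58). The 4 wild-type embryos also differed by number. In 12 members both number 18 embryos lay above both number 4 embryos, among them Stmn3 (61.7 against 19.5 CPM) and Rab3a (12.8 against 5.10 CPM), and in 5 members, Kif5c, Cntn2, L1cam, Elavl2 and Isl1, they lay below. With so few embryos such orders arise often by chance. The same counts over all genes were not made, so none of the counts within or between numbers has a background here.

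With the title number as a block, the median log2 fold change of the members was -0.51 against wild-type and -0.79 against heterozygous embryos. Knockout 4 is the only embryo of number 15 and heterozygous 3 the only one of 4.1b, so neither weighs in these estimates. Knockout 4 was the lowest embryo for most members. In embryos of numbers 4 and 18 only, the median against wild-type was -0.54. A stage index was made of 15 genes that are higher and 11 that are lower later in development, none of them neuronal. It was -0.32, -1.42, 0.73 and -2.28 in knockout embryos 1 to 4, 0.90, 0.48, -0.21 and 0.02 in heterozygous embryos and 0.88, 1.74, -0.01 and -0.52 in wild-type embryos. Knockout embryos 4 and 2 had the lowest index and the lowest neuronal mean. Wild-type 2 and heterozygous 1 had the highest index and the highest neuronal mean. Between these ends the orders differed for some embryos. Wild-type 4 had a lower index than knockout 1 and a higher neuronal mean (-0.03 against -0.62). Heterozygous 3 had a lower index than the library labelled heterozygous 2 and a higher neuronal mean (0.41 against -0.24). With the index as a covariate all 32 members had a lower estimate in knockout embryos, the median was -0.47 against wild-type and -0.66 against heterozygous, 3 and 16 members had an unadjusted edgeR p under 0.05, and 0 passed the adjusted threshold.

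Without knockout 3, whose yolk sac markers stood apart, edgeR called 2 members lower against the mean of both other genotypes, Kif1a and Syt1, beside 0.104% of all genes tested. Without knockout 3 and the library labelled heterozygous 2, it called 18 members lower against the mean of both (1.04% of all genes), 2 against wild-type (0.0523%) and 3 against heterozygous embryos (0.119%). Knockout 3 was also the knockout embryo with the highest neuronal mean, so its removal widens the difference by construction. Heterozygous 2 had the lowest neuronal mean of the heterozygous embryos (-0.24). Leaving it out also widens, by construction, the differences that involve heterozygous embryos.

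Neighbouring gene lists placed the members in context, with 0 genes past edgeR's adjusted threshold in every list. Of 20 other neuronal cytoskeleton genes 20 had a lower estimate against wild-type, with a median log2 fold change of -0.62. The alpha tubulin Tuba1a, the most abundant, was at 2113 ± 609 CPM in knockout, 3051 ± 977 in heterozygous and 3745 ± 1390 in wild-type embryos (SD, n = 4 each), and the beta tubulin Tubb2b was at 608 ± 215, 1073 ± 126 and 1040 ± 272 CPM. Map6, which protects microtubules from cold, had the smallest p of that list (log2 fold change -0.68 ± 0.20, edgeR adjusted p = 0.537). All 28 other synaptic and secretory genes tested had lower estimates, with a median of -0.76. Among them were Syt11 (-0.44) and Nsg2 (-0.85), the most abundant of that list.

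Medians of the remaining lists of the same machinery were nearer to 0 than the members' median, with single genes far from it. Of 17 other transport and motor genes 14 were lower with a median of -0.10, and the ubiquitous kinesin Kif5b was at 234 ± 19.6 CPM in knockout embryos, with 209 ± 55.8 CPM in wild-type ones (log2 fold change 0.16 ± 0.19). The 21 broadly expressed relatives of the members had 16 lower, a median of -0.23 and estimates from -1.27 to 0.16. Of them 5, Tubb2b (-0.77) included, were lower at an unadjusted edgeR p under 0.05. Lists can share genes, and Tubb2b is counted both here and among the other neuronal cytoskeleton genes. Tubb5, the most abundant, had -0.23 ± 0.19. Other axon guidance genes had 16 of 20 lower (median -0.33; Robo1 -0.27, Ntn1 0.11, Cntn1 -0.92), and other RNA-binding genes had 10 of 12 lower (median -0.49; Ptbp2 0.08, Rbfox2 -0.15, Celf5 -1.12). The 8 genes of REST and its partners had a median of 0.05.

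Along the neuronal lineage, proneural and early differentiation genes had 12 of 14 lower with a median of -0.28; Btg2 had -0.57 and Hes6 -0.62. Neural progenitor genes had 12 of 20 lower with a median of -0.03 against wild-type, and 17 of 20 lower with a median of -0.17 against heterozygous embryos, although the summed level, in which the intermediate filament genes Vim and Nes weigh most, ran from 1311 to 1749 CPM in knockout and from 1838 to 2349 CPM in the other embryos. The log2 ratio of Elavl3 to the proneural factor Neurog2 was 0.84, 0.97, 1.70 and 0.30 in knockout embryos, 1.84 to 3.27 in heterozygous embryos and 1.72 to 2.28 in wild-type embryos, without overlap by a narrow margin. Ratios of other pairs were computed as well, and in each of them knockout and wild-type embryos overlapped. How often other pairs of genes lack overlap was not counted. The log2 ratio of Tubb3 to its ubiquitous relative Tubb5 was -4.63 ± 1.05 in knockout, -3.54 ± 0.71 in heterozygous and -3.45 ± 0.23 in wild-type embryos (SD, n = 4 each), with overlap.

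Lists that could carry single members outside neurons had medians near 0, -0.11 for 12 neural crest genes (7 lower), 0.05 for 9 sympathetic and adrenal genes (4 lower) and 0.05 for 6 endocrine genes (3 lower).

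**Figure D4:**
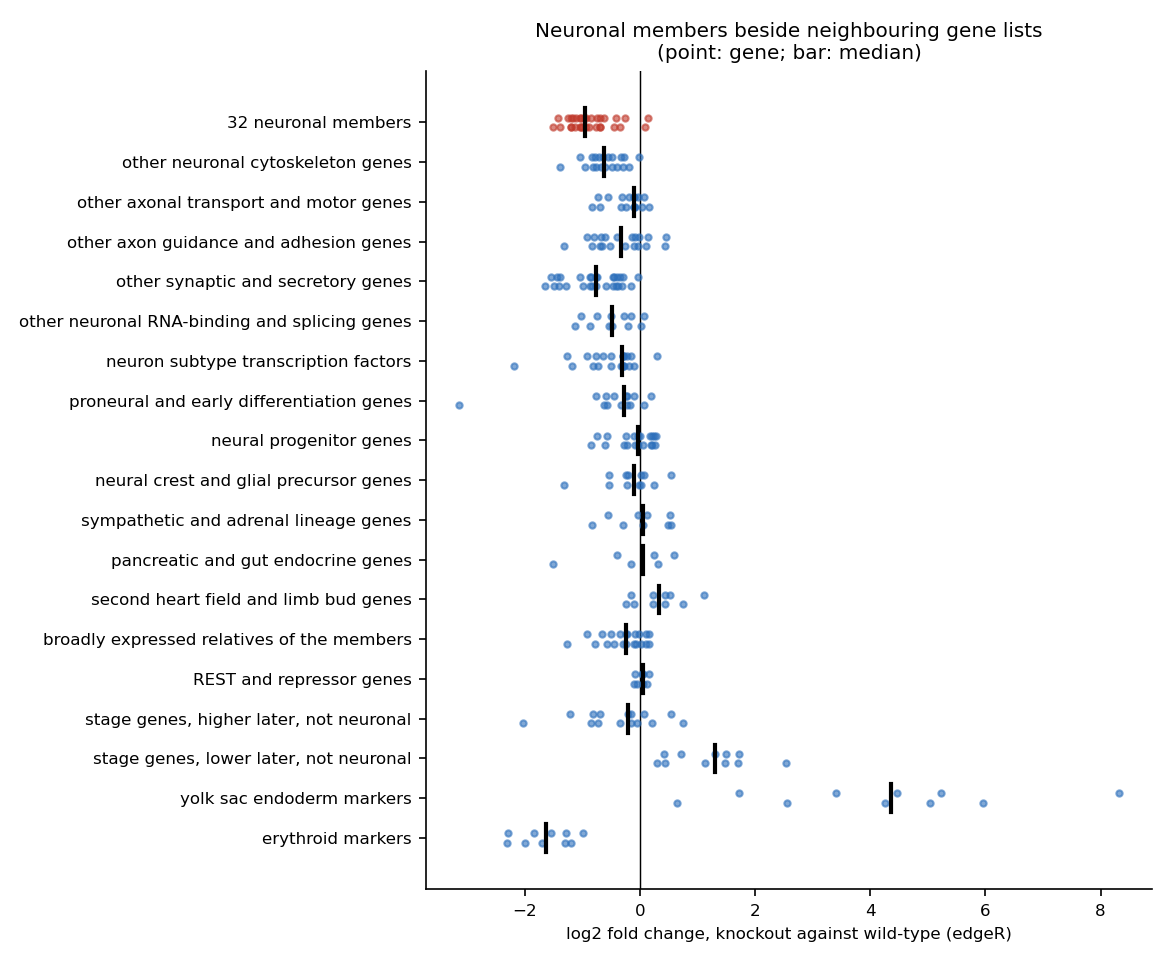
Log2 fold change of single genes, knockout against wild-type (horizontal axis), for the 32 members (red) and 18 neighbouring lists (blue), with black bars at the medians. The neuronal cytoskeleton and synaptic lists lie to the left of 0 and the progenitor and repressor lists near 0. The stage genes lower later, yolk sac and erythroid lists lie farther out, and the stage genes higher later have a median of -0.20.

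Stage genes that are lower later and markers of red blood cells had shifted estimates in knockout embryos, with summed levels that overlapped between genotypes. Yolk sac markers stood apart in knockout 3 and, to a lesser extent, in heterozygous 1. All 11 tested stage genes that are lower later had a higher estimate in knockout embryos (median 1.30), and their summed level was 135 to 778 CPM in knockout, 76.8 to 284 CPM in heterozygous and 70.5 to 247 CPM in wild-type embryos. Of 15 stage genes that are higher later, 11 had a lower estimate (median -0.20). Their summed level was 1355 to 2059 CPM in knockout, 1047 to 2128 CPM in heterozygous and 1347 to 1821 CPM in wild-type embryos. The collagen genes Col1a2 and Col1a1 weigh most in this sum, and Col1a1 had a higher estimate in knockout embryos (log2 fold change 0.55 ± 0.34). Mean centred log2 CPM, in which each gene weighs alike, was -0.18 ± 0.39 in knockout embryos. It was 0.03 ± 0.37 in heterozygous and 0.16 ± 0.33 in wild-type embryos (SD, n = 4 each). All 10 yolk sac endoderm markers had a higher estimate (median 4.36), which rests on knockout 3, since their mean centred log2 CPM was -1.26, -0.85, 5.31 and -0.83 in knockout embryos 1 to 4 and -1.58 to -0.15 in wild-type embryos. In heterozygous embryos 1 to 4 that mean was 2.34, -0.95, -0.23 and -0.26. The markers had summed levels of 95.3, 116, 5722 and 111 CPM in knockout embryos 1 to 4. Sums were 113 to 817 CPM in heterozygous embryos, highest in heterozygous 1, and 73.9 to 196 CPM in wild-type embryos. Of these markers Amn, Apoa4 and Slc2a2 were at 0 in at least 1 embryo. All 10 erythroid markers had a lower estimate (median -1.62), with sums of 4931 to 17820 CPM in knockout, 12250 to 49020 CPM in heterozygous and 16930 to 84070 CPM in wild-type embryos. Their part in the neuronal differences was not tested beyond the stage covariate and the values without knockout 3.

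**Figure D5:**
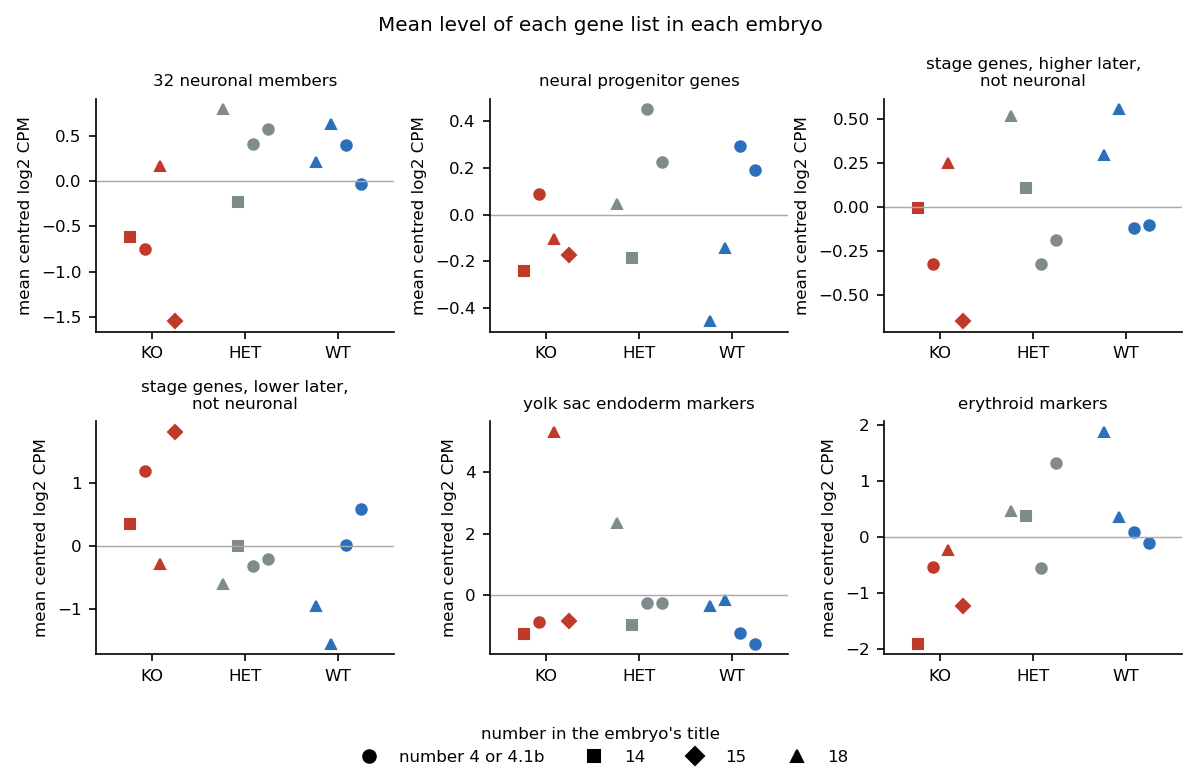
Mean centred log2 CPM of the 32 members and of 5 other gene lists (vertical axes) in each embryo, by genotype, with the marker shape giving the number in the embryo's title. Knockout 4 (diamond) is lowest for the members at -1.54 and highest for the stage genes that are lower later at 1.81. Knockout 3 (triangle) stands apart in yolk sac markers at 5.31, followed by heterozygous 1 at 2.34.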

How the data were processed

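The deposited file is a single gene table in which the authors give estimated counts without normalization, made with featureCounts 2.0.6 on the RefSeq annotation of GRCm39, per the file headers. Multi-mapping reads and reads over several genes added fractions, mates were counted singly, and strand was not used although the kit marks it, so genes that overlap on opposite strands share reads. The submitters' processing notes also list DRAGEN and Subread and give no role for them. Of the values above 0, 27.4% were not whole; counts were rounded. The table held 0 rows of spike-in RNA.

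Genes were filtered with filterByExpr, scaled by TMM and tested in edgeR 4.0.16 (R 4.3.3) by quasi-likelihood, with all 12 embryos and a mean per genotype. P-values were two-sided, adjusted by the Benjamini-Hochberg method over all 20771 genes tested, with a threshold of 0.05. CPM uses TMM-scaled totals, FPKM divides it by the deposited gene length, and log2 CPM has a prior count of 2. Exact permutation tests compared log2 CPM. No pair of embryos of a genotype agreed within sampling noise.

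Embryos are separate animals, numbered within a genotype in deposition order; the numbers pair nothing. Members given in full were, in each role, the one with the highest mean FPKM and those with the smallest p against wild-type or against the mean of both other genotypes; Reep1 and Elavl2 were added after their values were seen. Genes of other lists were the 2 most abundant and the 1 with the smallest p, and not all of these are printed. The members and lists were chosen with earlier results of these data known, so no list was tested. Promoter windows are RefSeq sequences of GRCm38.p6, searched for 11 motifs written by hand. Alternatives were DESeq2 1.42.0, limma 3.58.1 with voom and sample weights, other scalings and filters, fits of the compared groups alone, covariates for title number, Xist and stage index, and leaving out embryos.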

Additional observations from a re-analysis of the deposited data

Results flagged for a closer look

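In each genotype every member was examined for 1 embryo that stood apart from the other 3, which made 96 groups of 4 embryos; chance flags about 1 in 20 groups, and 2 were found. Dpysl3 was at 208.3 CPM in the library labelled heterozygous 2, while the other 3 heterozygous embryos lay between 259.3 and 263.8 CPM. Syt1, the calcium sensor of vesicle release, was at 4.794 CPM in knockout 3, while the other 3 knockout embryos lay between 1.096 and 1.608 CPM.

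For 4 members the difference between knockout and wild-type embryos had opposite directions within the title numbers 18 and 4, with the single knockout embryo above both wild-type embryos within number 18 and below both within number 4; the difference was not tested. The log2 difference within number 18 was 0.31 for Kif5c, against -0.75 within number 4. For Cntn2 it was 0.77 against -2.27. For L1cam it was 0.35 against -0.45. For Elavl2 it was 0.79 against -0.47. In these 4 genes wild-type embryos of number 18 had lower levels than those of number 4. How many of all genes show such opposite directions was not counted.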

How the results depend on the processing

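The median log2 fold change of the members kept its direction in 25 of 25 alternatives against wild-type and 25 of 25 against heterozygous embryos, and in 24 of 24 against the mean of both. Against wild-type it ran from -1.32 (without knockout 3) to -0.47 (stage index covariate), and leaving out 1 embryo gave -1.32 to -0.75. Against heterozygous embryos it ran from -1.58 (without heterozygous 2 and knockout 3) to -0.66, and against both from -1.45 to -0.58. Between heterozygous and wild-type embryos it ran from 0.01 to 0.35, and the count of lower members from 0 to 15. The fit of the compared groups alone does not apply to the comparison with the mean of both.

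Counts of members past the adjusted threshold were 0 in the main test. DESeq2 gave 1 against wild-type, 3 against heterozygous embryos and 7 against the mean of both. Without heterozygous 2 and knockout 3, edgeR gave 2, 3 and 18. Leaving out 1 embryo gave 0 to 2 against the mean of both, with 2 without knockout 3. Limma voom gave 0. The causes were not tested, apart from knockout 3 having the highest and heterozygous 2 the lowest neuronal mean of its group. Against wild-type, Isl1 went from 0.14 to -0.055 with the stage index covariate, and Elavl2 from 0.08 to -0.12 without wild-type 1, to -0.07 with limma voom and to -0.02 with the stage index covariate; the other 11 members given in full by rule kept their sign. No paired analysis was made because the labels state no pairing of embryos. The title number was used as a block instead, and gave medians of -0.51, -0.79 and -0.66 and 0 members past the threshold. Low levels limit Myt1l, Chga and Syt1 most.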
